A study of Mus musculus with 18 samples.

Results

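Dbp, Tef and Hlf encode the 3 transcription factors of the PAR bZIP family, named after a region rich in proline and acidic amino acids next to a basic leucine zipper. They bind DNA elements called D-boxes, where the repressor NFIL3 competes with them, and they pass the rhythm of the circadian clock on to other genes, among them genes of drug and lipid metabolism in liver. BMAL1, paired with CLOCK, activates transcription from E-boxes with the core CACGTG, and Dbp is a long-studied direct target of this pair.

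BMAL1 binding at these 3 genes was read from peaks of chromatin immunoprecipitation with sequencing (ChIP-seq) for liver, for kidney and for heart. A peak belonged to a gene when its centre lay inside the gene or within 10 kb of either end, which selected 32 of 11366 peaks at 3 of 21887 protein-coding genes. These were 12 of 4813 liver peaks, 11 of 4034 kidney peaks and 9 of 2519 heart peaks. All mice were wild type on a C57BL/6 background, 3 to 6 months old, with no treatment named in the labels. They lived in cycles of 12 h light and 12 h dark with free access to food, and the tissues came from the same animals at the middle of the light phase, 6 h after its start. The antibody was raised in chicken against the N-terminal part of mouse BMAL1. Each tissue had 3 ChIP and 3 input libraries, which the authors pooled before they called its peaks. The values below therefore have no error between animals and no test, read depth is unknown, and within a whole tissue the cells that gave a peak cannot be told apart. Each peak carries a whole-number score from the authors, whose scale is not given. Scores ran from 17 to 389 in liver, 14 to 304 in kidney and 16 to 375 in heart, and were used only to rank peaks within a list, with rank 1 for the highest score. For the heart, the 3 input libraries carry a source name that says kidney although title and tissue say heart, and whether this touched the heart list was not tested.

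The promoter sequences of the members are shown because sites lay at or near their start sites, although the stretches hold only part of the sequence under those peaks or, at the downstream Tef start, none of it. They are printed 5′ to 3′ along the gene from RefSeq (GRCm38.p6). Capitals mark the E-box core CACGTG and the related letters CACGCG, which read CGCGTG on the other strand. The Dbp stretch ends at the outer boundary of the gene, and the other stretches end at the base before a start site. Tef has an upstream and a downstream start site, and Dbp and Hlf have 1 each in this table.

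Dbp (chr7:45704997-45705099, plus strand): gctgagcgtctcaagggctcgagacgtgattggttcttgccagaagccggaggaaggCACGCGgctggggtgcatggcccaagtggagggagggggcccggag
Tef upstream start (chr15:81802423-81802672, plus strand): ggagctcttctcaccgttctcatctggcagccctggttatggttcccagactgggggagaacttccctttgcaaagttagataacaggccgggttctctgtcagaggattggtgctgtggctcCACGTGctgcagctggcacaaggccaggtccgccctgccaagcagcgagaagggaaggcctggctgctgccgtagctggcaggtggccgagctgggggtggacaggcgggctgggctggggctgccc
Tef downstream start (chr15:81811164-81811413, plus strand): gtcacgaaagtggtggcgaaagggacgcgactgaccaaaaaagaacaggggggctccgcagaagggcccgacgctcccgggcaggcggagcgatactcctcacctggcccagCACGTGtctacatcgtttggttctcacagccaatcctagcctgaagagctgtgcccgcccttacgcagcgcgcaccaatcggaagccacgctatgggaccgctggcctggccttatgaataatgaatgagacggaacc
Hlf (chr11:90390918-90391167, minus strand): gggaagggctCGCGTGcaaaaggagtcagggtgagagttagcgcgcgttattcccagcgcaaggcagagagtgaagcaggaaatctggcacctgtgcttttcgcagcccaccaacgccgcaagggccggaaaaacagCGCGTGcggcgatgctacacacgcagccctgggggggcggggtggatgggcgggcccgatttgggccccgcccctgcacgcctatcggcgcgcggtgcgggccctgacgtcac

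All 3 genes carried several BMAL1 sites in every tissue, and each had 3 regions in which the peaks of all 3 lists overlapped. Counted over the lists, Dbp had 3 separate sites, Tef 4 and Hlf 6. Of these 13 sites, 9 were found in all 3 lists, 1 in 2 lists and 3 in a single list, whereas 5.76% of the 9005 regions of the series had a peak in all 3 lists. Where lists shared a site, the peak centres lay at most 47 bp apart. The genes differed in how binding was arranged: at Dbp all sites were among the top of each list, at Tef a single site was, and at Hlf the sites near and inside the gene ranked lower than a site far upstream.

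**Figure D1:**
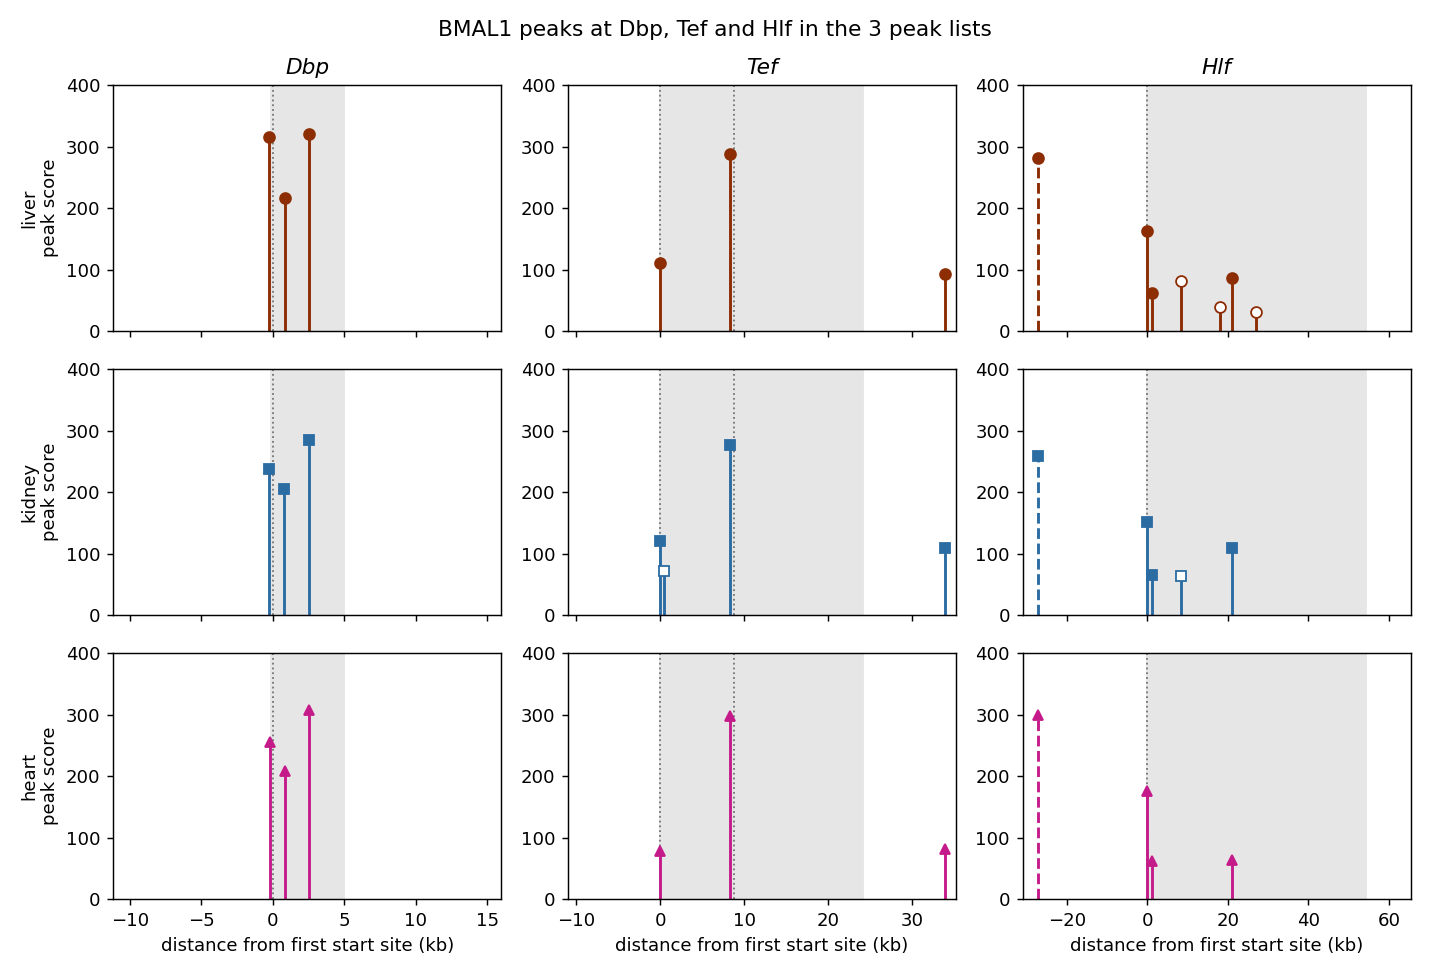
Peak score (y axis, the authors' scale, not comparable between lists) against the distance in kb of the peak centre from the first start site, in the direction of transcription, for Dbp, Tef and Hlf (columns) in the liver, kidney and heart lists (rows). Grey marks the gene, dotted lines mark start sites, filled symbols are sites found in all 3 lists, open symbols sites found in fewer, and dashed stems the Hlf site outside the 10 kb window; Dbp shows 3 high peaks, Tef a single high peak before its downstream start, and Hlf its highest score 27.2 kb upstream of the gene.

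Dbp (chr7:45705100-45710203) is a gene of 5.10 kb with 3 sites, all found in all 3 lists. The site inside the gene, centred 2501.5 to 2518.5 bp after the start site (chr7:45707645-45707886 in the liver list), had a score of 321 in liver, 285 in kidney and 308 in heart. It ranked 3, 4 and 3. The site at the promoter, centred 206.5 to 235.5 bp before the start site (chr7:45704891-45705132), scored 315, 238 and 256 and ranked 5, 12 and 10. Between them, 815.5 to 845.5 bp after the start site (chr7:45705972-45706213), a further site scored 217, 205 and 208 and ranked 35, 22 and 19.

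The order of these sites was the same in the 3 lists: the inner site highest, the promoter site next and the middle site lowest. Even the lowest of the 9 ranks lay in the top 0.754% of its list. The Dbp promoter stretch shown above lay wholly under the peak in each list. It held no CACGTG, and its CACGCG lay 193 bases before the start site, 16 to 45 bp from the peak centres.

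Dbp lies among close neighbours, and its sites fell within 10 kb of other protein-coding genes as well. Car11, a carbonic anhydrase-related gene that ends 0.413 kb before Dbp, and Sphk2, a sphingosine kinase gene that overlaps the end of Dbp, had all 3 Dbp sites in their own windows. Rpl18, a ribosomal protein gene, had the inner and middle sites. The gene end nearest to the promoter and middle sites was that of Dbp, and nearest to the inner site that of Sphk2. The lists alone do not tell which gene a site serves.

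Peaks beyond the Dbp window are listed by distance, and the usual spacing of peaks in the lists was not computed. The nearest further peak was 63.4 kb from the gene in heart (rank 654), 130.4 kb in kidney (rank 1473) and 130.9 kb in liver (rank 746). Each was found in a single list and lay inside another gene, Mamstr in heart and Bcat2 in kidney and liver. The second nearest were 136.8 kb away in kidney (rank 487) and 136.9 kb in heart (rank 520), where they overlapped each other, and 212.0 kb in liver (rank 2481).

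Tef (chr15:81802673-81826863) spans 24.2 kb, and its binding was concentrated in a single site. This site lay 436.5 to 451.5 bp before the downstream start (chr15:81810852-81811093 in the liver list). It scored 288 in liver, 277 in kidney and 297 in heart and ranked 8, 5 and 6. The next Tef site in each list was ranked far lower, at 352 in liver, 121 in kidney and 216 in heart.

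At the upstream start of Tef a peak centred 34.5 to 81.5 bp before the start (chr15:81802482-81802723) scored 111 in liver, 120 in kidney and 78 in heart. Its ranks were 352, 121 and 232. A site 9716.5 to 9728.5 bp beyond the end of the gene (chr15:81836466-81836707) scored 93, 109 and 81, at ranks 535, 159 and 216. In liver and kidney the upstream start site scored above the site beyond the gene, and in heart the 2 scores differed by 3 units in the other direction. The site beyond the gene is the member site nearest to the edge of the 10 kb window. The first peak outside that edge was found in a single list in each tissue, 13004.5 bp from the gene in kidney (rank 1198), 18994.5 bp in liver (rank 941) and 20093.5 bp in heart (rank 1491). Each of these was nearest to Tob2, an antiproliferative gene. The next ones, also in a single list each, lay 29.4 kb past the end of Tef in kidney (rank 2132), 32.8 kb past it in liver (rank 3961) and, on the opposite side, 66.9 kb upstream of the gene in heart (rank 1975).

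The remaining Tef site was found in kidney only. Its centre lay 421.5 bp after the upstream start (chr15:81803001-81803188) and 503 bp from the centre of the kidney peak at that start, and it scored 72, at rank 426. Of the 2327 kidney-only peaks, 30 (1.29%) ranked above it. No liver or heart peak overlapped it. Of other genes, the protein-coding gene Zc3h7b had the kidney-only site and the site at the upstream start in its own window. The non-coding gene Gm17597 had these and the strong site. The pseudogene Gm8444 had the site beyond the gene.

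CACGTG occurred in both Tef stretches printed above. At the upstream start it lay 127 bases before the start and inside the peak of all 3 lists, 43.0 to 90.0 bp from the peak centres. At the downstream start it lay 138 bases before the start, outside every peak and 301 to 316 bp from the centres of the strong site. That peak ended 71 bp (liver), 93 bp (kidney) and 103 bp (heart) before the printed stretch, and the sequence under it was not analysed here.

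Hlf (chr11:90336535-90390917) is the longest of the 3 genes at 54.4 kb, runs on the minus strand and had the most sites. Its highest site within the window lay at the start, centred between 30.5 bp before and 14.5 bp after it (chr11:90390822-90391063 in the liver list). This site scored 162 in liver, 152 in kidney and 176 in heart and ranked 106, 60 and 32. All other sites were inside the gene, from 1241.5 to 26875.5 bp after the start.

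Inside Hlf, the sites found in all 3 lists lay 1241.5 to 1274.5 bp and 21060.5 to 21072.5 bp after the start. The nearer one (chr11:90389555-90389796) scored 62 in liver, 66 in kidney and 62 in heart, at ranks 1251, 502 and 344. The farther one (chr11:90369724-90369965) scored 87, 110 and 64, at ranks 630, 153 and 328. The farther site scored above the nearer one in all 3 lists, in heart by 2 units.

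The other 3 Hlf sites were missing from at least 1 list. A site 8391.5 to 8408.5 bp after the start (chr11:90382405-90382646) was found in liver (score 81, rank 731) and kidney (score 64, rank 528) and not in heart. Liver alone had sites 18053.5 bp (chr11:90372743-90372984, score 40, rank 2345) and 26875.5 bp (chr11:90363921-90364162, score 31, rank 3066) after the start. They stood at 48.7% and 63.7% of the way down the liver list, and 33.8% and 51.5% of the 3199 liver-only peaks ranked above them. The heart list is the shortest, and for a site that it lacks, the cutoff of the list and weaker binding cannot be told apart.

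The Hlf stretch printed above held no CACGTG. Of its 2 CACGCG matches, the one 113 bases before the start lay inside the liver and heart peaks and outside the kidney peak, and the one 240 bases before the start lay outside all 3.

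The strongest peak near Hlf lay outside the window that defined its sites. It was centred 27.2 kb upstream of the start in every list (chr11:90417982-90418223 in the liver list) and scored 282 in liver, 258 in kidney and 300 in heart. Its ranks were 11, 6 and 5, against 106, 60 and 32 for the best site within the window. Hlf was the nearest protein-coding gene to this peak, no protein-coding gene lay within 10 kb of it, and the next gene on that side, Stxbp4, begins 85.6 kb from Hlf. Among all peaks more than 10 kb from any protein-coding gene (939 in liver, 531 in kidney and 374 in heart), 1 liver peak and no kidney or heart peak ranked above it. The next nearest peaks outside the window were each in a single list: on the upstream side, 247.5 kb from Hlf in heart (rank 1406) and 296.8 kb in kidney (rank 1349), and on the other side, past the end of the gene and inside Mmd, 67.5 kb from Hlf in liver (rank 3458).

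**Figure D2:**
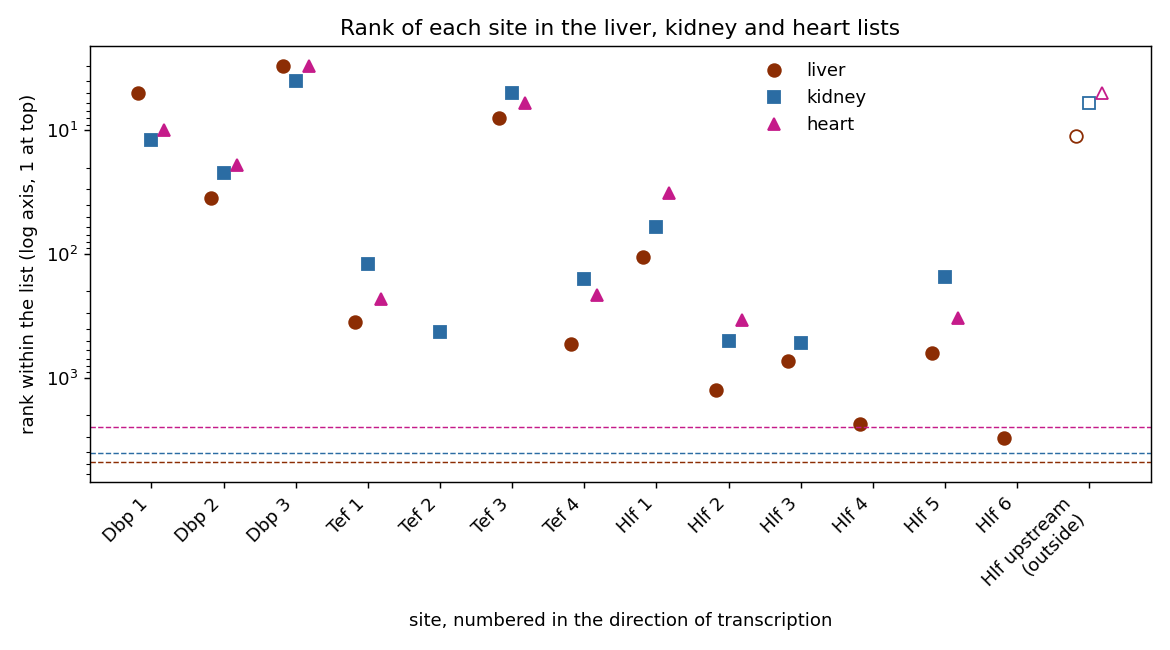
Rank of every site within its list (y axis, log scale, rank 1 at the top) for the 13 sites of Dbp, Tef and Hlf, numbered in the direction of transcription, with circles for liver, squares for kidney and triangles for heart, and dashed lines at the length of each list. Open symbols are the Hlf site 27.2 kb upstream, outside the window; it ranked 11, 6 and 5, near the third Tef site and above every Hlf site within the window.

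Most protein-coding genes had no peak, and few had several. The same window held a peak at 18.1% of the 21887 genes in liver, 18.0% in kidney and 11.5% in heart. At least 3 peaks were found at 1.16% of genes in liver, 0.736% in kidney and 0.206% in heart. Dbp had 3 peaks in each list, Tef 3 in liver and heart and 4 in kidney, and Hlf 6, 4 and 3. Hlf was one of 11 genes with 6 or more liver peaks, and Tef and Hlf were among 50 genes with 4 or more kidney peaks.

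A region common to the 3 lists was found at 3.09% of protein-coding genes, and at least 3 such regions at 0.0457%, which is 10 genes. All 3 members were among these 10, although Tef had 2 common regions with a window of 5 kb. The others, named after their values were seen, were the neighbours Car11 and Sphk2, which count the Dbp sites, the clock repressors Nr1d1, Bhlhe40 and Bhlhe41, the transcription factor gene Klf9 and the ubiquitin protease gene Usp2. No gene had more than 3.

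**Figure D3:**
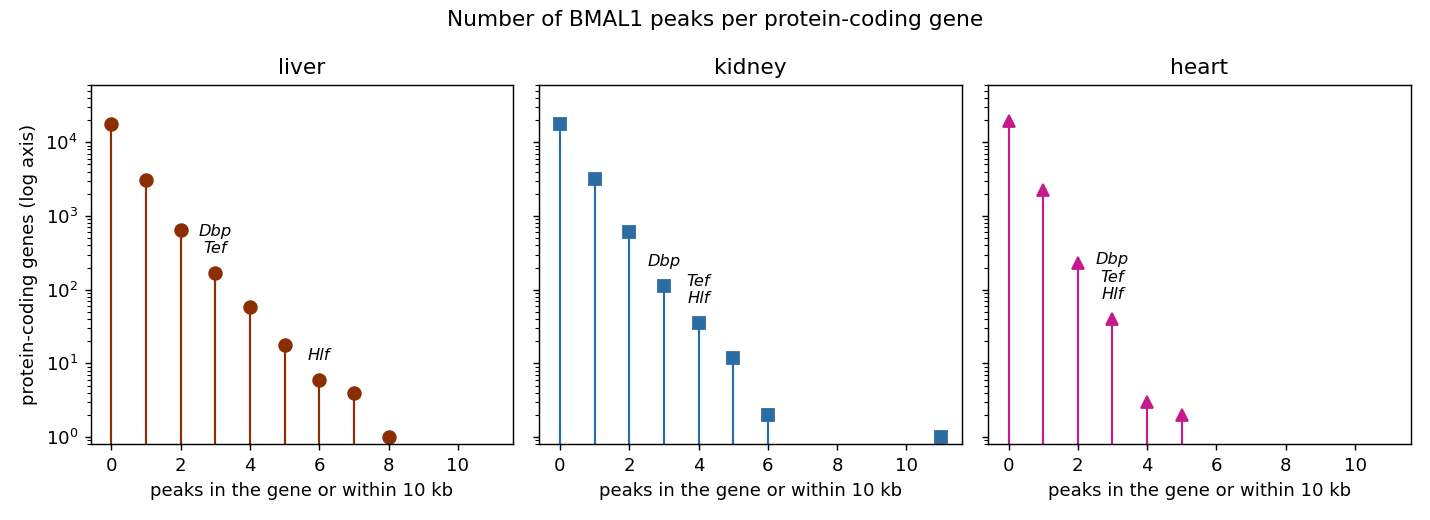
Number of protein-coding genes (y axis, log scale) by the number of BMAL1 peaks in their 10 kb window (x axis), for the liver, kidney and heart lists, with the members named above their value. Most genes had no peak; Dbp, Tef and Hlf had 3 peaks each in heart, where 45 genes had 3 or more, and Hlf had 6 in liver.

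By their best peak within the window the members stood apart from each other. In liver, 2 genes had a better best rank than Dbp, 10 than Tef and 133 than Hlf. In kidney these numbers were 3, 7 and 74, and in heart 2, 7 and 35. A peak counts here for every gene whose window holds it. The inner Dbp site thus placed Car11, Sphk2 and Rpl18 above Tef along with Dbp. Counted by peaks, the best Tef site ranked 8 in liver, 5 in kidney and 6 in heart. Peaks within the windows of the members made up 3 of the top 10 liver peaks, 2 of the top 10 kidney peaks and 3 of the top 10 heart peaks.

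The arrangement at the members was set beside those of the REV-ERB and Period genes, clock repressors that BMAL1 also targets. Nr1d1 had 3 common regions, like each member, and rank 1 in every list. Nr1d2 and Per3 each had a single peak in each list, which ranked 2 in every list at Nr1d2 and 25, 11 and 8 in liver, kidney and heart at Per3. Per1 had 2 common regions and best ranks of 4, 7 and 9, and Per2 had 2 common regions and best ranks of 28, 14 and 13. Hlf had more liver peaks (6) than any of these 5 genes (1 to 4). It is also longer, at 54.4 kb against 7.45 to 47.7 kb, and a longer gene has a wider window. The best ranks of Hlf within the window were below those of all 5. These values are descriptions and the differences between the genes were not tested.

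Likeness of binding was measured as the distance between genes over the log10 best rank in the 3 lists, among 953 genes with a peak in every list. For Dbp the closest genes were Car11, Sphk2 and Rpl18 at a distance of 0, because they share its inner site. For Tef they were Thra, a thyroid hormone receptor gene with best ranks of 7, 3 and 4 (distance 0.289), and Per1 and Vamp2, both with best ranks of 4, 7 and 9 (distance 0.378). For Hlf they were Ddx50 and Stox1, with best ranks of 133, 52 and 41 (distance 0.159), and Osbpl2, with 95, 59 and 51 (distance 0.208). Per1 and Vamp2 have identical best ranks, as have Ddx50 and Stox1. Rank 4 in liver and rank 9 in heart each belong to a single peak, so Per1 and Vamp2 share their best peak in these lists. Whether they share it in kidney, and whether Ddx50 and Stox1 share theirs, was not examined. No member was among the closest genes of another member, which for Dbp follows from the 3 neighbours that share its inner site.

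Motifs were counted in the RefSeq promoter windows, which run from 250 bases before to 50 after a start site, on both strands. A peak overlapped 3.19% of 32817 windows in liver, 4.14% in kidney, 2.12% in heart and 0.829% (272 windows) in all 3 lists. The windows of Dbp, Hlf and the upstream Tef start were overlapped in all 3 lists, and the window of the downstream Tef start in none. CACGTG was found in 7.15% of all windows and in 52.6% of the 272 windows with peaks in all lists, and among the members only in the Tef windows. CACGCG, added after the sequences were seen, was found in 9.26% of all windows and 44.9% of the 272, and among the members only in the Dbp and Hlf windows. The printed stretches are rich in G and C, from 60.4 to 67.2%, and the part of base composition in these matches was not tested.

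No member window held the E-box-like letters CACGTT, which read AACGTG on the other strand and were found in 4.69% of all windows. None held the D-box letters TTATGTAA (0.935%) or TTACGTAA (0.119%). Nor did any hold a tandem of E-boxes or E-box-like letters whose starts are 12 or 13 bases apart, which 0.0183% of all windows did. An absent match says only that these letters are not in the window.

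Genes that act at D-boxes or are described targets of the PAR bZIP factors were then counted, from a list of 15. A peak lay in the window of 7 of the 15 in liver, 6 in kidney and 2 in heart. Of all protein-coding genes 18.1, 18.0 and 11.5% had one, and the heart count is near that share. No peak in any list lay at 8 of the 15, and the share of all genes without any peak was not computed. Nfil3, the D-box repressor, had 1 region common to the 3 lists, at rank 57 in liver, 203 in kidney and 464 in heart. Per1 was the only other gene of the list with common regions.

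Liver and kidney peaks without a heart peak lay at 4 of these genes. The share of all genes with this combination was not computed, and 88.5% of all protein-coding genes had no heart peak. Por, which encodes the electron donor of microsomal P450 enzymes, had 4 liver peaks (best rank 371) and 2 kidney peaks (best rank 95). Ppara, a fatty acid-sensing nuclear receptor gene, had 5 liver peaks (best rank 138) and 1 kidney peak (rank 286). Alas1, the first enzyme of heme synthesis, had best ranks of 1008 in liver and 1408 in kidney, and Pdxk, which encodes pyridoxal kinase, 504 and 346. Abcb1a, a drug efflux pump gene, had a liver peak alone, at rank 4329. Alb, Nr1i3, Cyp7a1, Cyp2a4, Cyp2a5, Cyp2b10, Acot2 and Tshb had none. None of these genes reached the ranks of Dbp or of the best Tef site except Per1, whose best rank in liver lay between them.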

How the data were processed

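Per the series' design text, the authors pooled the ChIP and input replicates of a tissue into 1 list of peaks. The submitters' processing notes name Bowtie2, SAMtools, HOMER and the mm10 build, with no role. Tissue was fixed in 1% formaldehyde, each library took 10 ng of DNA through 16 rounds of PCR, and reads had 75 bases. The score that the authors deposited for each peak was used as given. All peaks of a list share a width: 242 bp for liver, 188 bp for kidney, 198 bp for heart.

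Gene boundaries, start sites and promoter sequences came from RefSeq tables of GRCm38.p6, the assembly of mm10, and all symbols matched. Exons and introns were not used here. Ties took the lowest rank number, and overlap of at least 1 bp counted as shared. The window, sharing and ranking steps were tested on made-up peaks. Python 3.11.15 and pandas 2.3.3 were used.

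The members and gene lists were chosen with earlier results of these data known. Besides the lists, the text names every site of the members, the 2 nearest sites outside the window in each list, genes whose window holds a member's site, and the 3 genes most like each member. With 1 pooled list per tissue no test between animals was possible.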

Additional observations from a re-analysis of the deposited data

How the results depend on the processing

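The window mattered most. Counting only peaks inside the gene left Tef with 1 site in liver, 2 in kidney and 1 in heart and 1 common region, and the best Hlf rank fell back to 630 in liver and 328 in heart, because peaks centred before the first start or past the end of a gene are then lost. A window of 50 kb, added after the sites outside were seen, gave Tef 5 liver sites and took the best Hlf rank to 11, 6 and 5 in liver, kidney and heart, since it takes in the upstream peak; windows of 5 and 25 kb did not move a member's best rank. Ranking by the order of peaks in the deposited list, also added later, put the best Dbp site of liver at 5. With 150 instead of 250 bases before the start, CACGCG remained in 1 member window. Of 72 alternative site counts 68 stayed within 1.5 times of the reported value. So did 26 of 27 counts of common regions and 84 of 90 best ranks. These alternatives covered the upper 50% of each list, equal numbers of top peaks, nearest-gene assignment, stricter and looser sharing and other rules for ties. Nearest-gene assignment could not remove a peak inside a member, because it used the distance to the whole gene. It therefore left the inner site with Dbp, although the nearest gene end is that of Sphk2, and assignment by gene ends was not tried. A fall from 3 to 2 counts as within 1.5 times. Such falls include the common regions of Tef at 5 kb and of Dbp inside the gene. Merging peaks within 500 bp could change no site count, since the closest peaks of any list at a member lay 503 bp apart. Shortened lists kept the ranks of the full list, so there the best ranks were fixed in advance. Rules for ties could move them little, since at most 2 peaks held the score of a member's best site. The share of genes with a peak also moved with windows and thresholds. It ran from 10.2 to 34.0% in liver, 9.65 to 33.1% in kidney and 6.83 to 22.7% in heart. No paired analysis was possible because the files pool the replicates of each tissue, and for the same reason no replicate could be left out. Depth is unknown, so a site missing from a list is not shown to be unbound.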
